A study of Saccharomyces cerevisiae with 4 samples.

Results

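Aminoacyl-tRNA synthetases join each amino acid to its tRNA, the step at which the genetic code is read out into protein. Budding yeast makes one set of enzymes for cytosolic translation and, for many amino acids, a second, nuclear-encoded enzyme for the mitochondrion, which translates only a handful of respiratory proteins. Genes of cytosolic translation are known to be transcribed in step with growth, and mitochondrial genes more with respiration. The genes described here are 32 of the 5656 genes that had a probe set of their own: 18 cytosolic enzyme genes, 13 mitochondrial enzyme genes and ARC1, a tRNA-binding cofactor of the cytosolic methionyl and glutamyl enzymes Mes1 and Gus1. They were chosen by name and compartment, though with earlier results of these data known. Each had exactly 1 probe set, annotated to it alone. Of the cytosolic genes, 4 (ALA1, GRS1, HTS1 and VAS1) also supply the mitochondrial enzyme for their amino acid.

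Total RNA of Saccharomyces cerevisiae grown in the rich medium YPD was measured on 4 Affymetrix expression arrays. A strain carrying the temperature-sensitive allele nab3-11 and a wild type strain were each kept for 2 hours at 25 °C, where the mutant grows, or at 37 °C, the restrictive temperature. Nab3 is an RNA-binding protein that ends transcription of short non-coding RNAs together with Nrd1. Each group is 1 array, so every difference compares single arrays and carries no error, test or p-value, and the number of arrays limits the precision.

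Signals are MAS5 intensities scaled to a 2% trimmed mean of 150 per array. Values under a floor of 21.8, the 40th percentile of all non-control signals, were raised to it ahead of the log2 step. A gene counts as measured in a comparison if any signal there exceeded the floor, and was called higher or lower at 2-fold, a log2 difference of 1. Probe sets differ in brightness for reasons other than RNA amount, so only differences within a probe set are compared. Arrays at 25 °C are called cool and those at 37 °C warm, and 4 signals in a row are those of the warm mutant, the cool mutant, the cool wild type and the warm wild type array, in this array order.

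NAB3 itself had signals of 81.0, 72.1, 66.2 and 66.7 in array order, which does not check the strain labels, since the allele is not a deletion. The free-text entries of the wild type arrays speak of the cool mutant, against their titles, which were followed here. Differences between the mutant arrays do not depend on this. The 3′ to 5′ signal ratio of the ACT1 control probe sets lay between 1.49 and 1.79 on the 4 arrays, and that of SPT15 between 2.82 and 6.08. A control probe set for 25S rRNA had a signal of 646 on the warm mutant array and between 100.3 and 125 on the other arrays.

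The scale of the arrays bears on every value below. The 9 hybridisation control probe sets (BioB, BioC, BioDn and CreX) had a median log2 difference of -0.45 between nab3-11 at 37 °C and 25 °C, and of -0.07 between the same temperatures in wild type. Their part in the results was not tested. Values after scaling to these controls are given beside the cytosolic results, and medians of all measured genes beside the class medians.

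**Figure D1:**
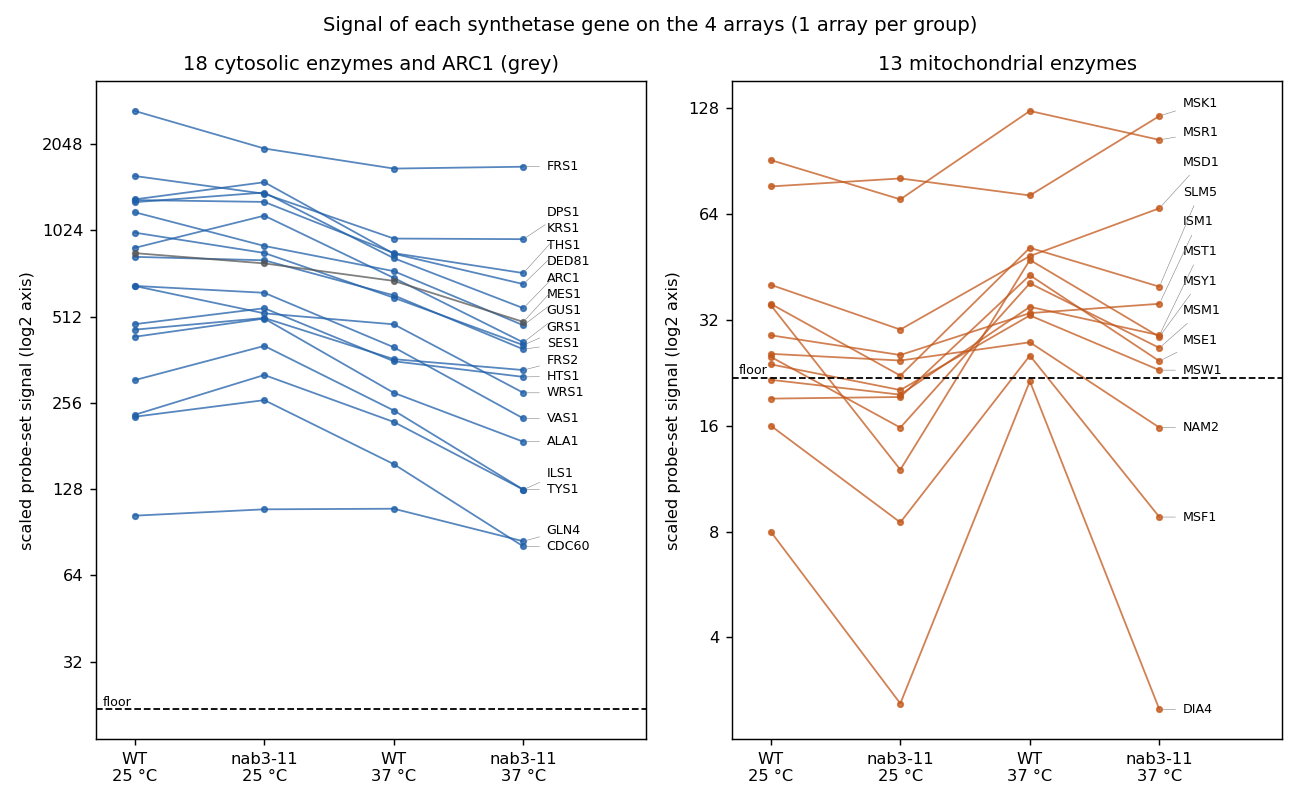
Scaled signal (log2 axis) of each gene on the 4 arrays, with 1 line per gene and the floor of 21.8 dashed. Lines of 17 of the 18 cytosolic genes lie lower on both 37 °C arrays than on both 25 °C arrays. Many mitochondrial lines run near the floor, and heights of different lines are not comparable.

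The largest differences lay between the temperatures in nab3-11. For cytosolic genes the median difference was -0.58 between temperatures in wild type, much as between strains at 37 °C (-0.57). In both strains the medians of the compartments lay furthest apart between temperatures, though their ranges were not clearly apart. In nab3-11, all 18 cytosolic enzyme genes had lower signals at 37 °C than at 25 °C, where 37.7% of measured genes did (17 with quantile normalization and 16 when arrays were scaled to the hybridisation controls), and 10 of them were at least 2-fold lower, where 4.06% of 4630 measured genes were. Their median log2 difference was -1.05, against 0.21 over all measured genes. On the hybridisation control scale 2, CDC60 and ILS1, passed 2-fold, and the cytosolic median was -0.56 against 0.63 over all genes. ARC1 was 1.60-fold lower.

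CDC60, the leucyl enzyme gene, had signals of 80.7, 262, 229 and 156 in array order. It was thus 3.24-fold lower at 37 °C in the mutant and 1.46-fold lower in wild type. ILS1, the isoleucyl enzyme gene, had signals of 127, 404, 307 and 241, a 3.17-fold difference in the mutant. On both probe sets the warm mutant array was the lowest and the cool mutant array the highest.

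GUS1, for glutamate, had signals of 416, 1152, 889 and 699 and was 2.77-fold lower at 37 °C in the mutant. VAS1, for valine in both compartments, had 226, 620, 655 and 400.0 and was 2.75-fold lower. ALA1, which charges alanine in both compartments, had 187, 504, 435 and 277 and was 2.69-fold lower. On each of these probe sets the warm mutant array was the lowest and the warm wild type array next.

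DED81, for asparagine, had signals of 548, 1388, 1284 and 819 in array order. TYS1, for tyrosine, had 127, 320, 233 and 219. The mutant differences were 2.53-fold and 2.51-fold, but in wild type DED81 was 1.57-fold lower at 37 °C and TYS1 only 1.06-fold.

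THS1, for threonine, had signals of 665, 1507.5, 1313 and 849, GRS1, for glycine in both compartments, 407, 854, 1005 and 596, and SES1, for serine, 394, 805, 827 and 607. Their differences in the mutant were 2.27-fold, 2.10-fold and 2.04-fold. These complete the 10 cytosolic genes past the threshold. The 4 genes that serve both compartments had a median of -1.25 in the mutant, and the other 14 cytosolic genes one of -0.98.

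In wild type the differences were smaller on the trimmed-mean scale. Of the 18 cytosolic genes, 17 had lower signals at 37 °C, where 28.7% of genes did, with a median log2 difference of -0.58 against 0.29 over all measured genes. None passed 2-fold, where 1.44% of 4650 genes were lower and 11.1% higher (10 passed when arrays were scaled to a common median), and 9 were at least 1.5-fold lower, where 6.41% of genes were. GRS1 was the lowest at -0.75, and GLN4, the glutaminyl enzyme gene, the exception at 0.08. Among the 2084 genes with a mean signal of at least 100, a background chosen after seeing the data because most cytosolic probe sets are bright, the median was 0.08 in wild type and 0.06 in the mutant. Of these bright genes, 919 lay below zero in wild type and 988 in the mutant. At least 1.5-fold lower in wild type were 233 of them, and at least 2-fold lower in the mutant 129. On the hybridisation control scale the cytosolic median was -0.56 in wild type and -0.56 in the mutant, so it was not smaller in wild type there. The medians of all measured genes were then 0.31 and 0.63.

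On 17 of 18 cytosolic probe sets both 37 °C signals lay below both 25 °C signals, an order found for 15.4% of 4811 genes. GLN4 was the exception again, with 84.1, 109, 103 and 109 in array order. Below zero in both strains lay 17 of 18, against 20.6% of genes. The temperature comparisons of the strains share no array. Across the 18 cytosolic genes, which share the 4 arrays and their scaling, the 2 temperature differences had a Pearson r of 0.09 and a Spearman rho of -0.02, so the order of the genes in one strain did not follow that in the other.

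**Figure D2:**
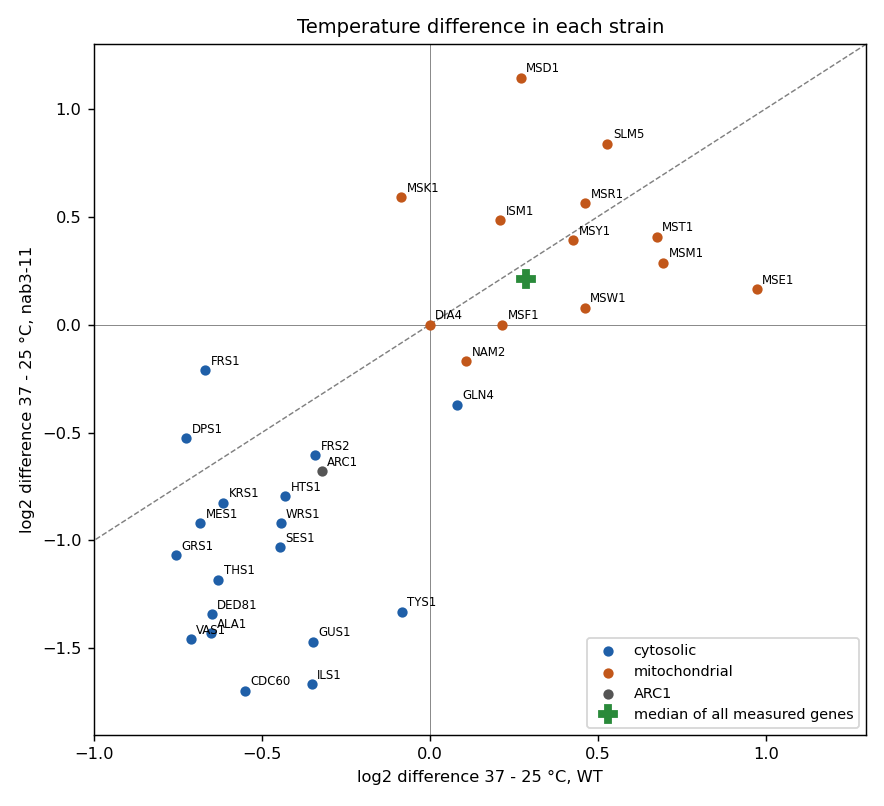
Log2 difference between 37 °C and 25 °C in wild type (x axis) and in nab3-11 (y axis), with 1 dot per gene, the median of all measured genes as a cross and equal values on the dashed line. Cytosolic genes lie at the lower left, spread from -0.21 to -1.70 in nab3-11, and the lowest mitochondrial dot, NAM2 at -0.17, is an upper limit set by the floor.

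The mitochondrial enzymes did not share this direction. Their probe sets were dim: 10, 6, 9 and 12 of 13 lay above the floor in array order, which limits the size of difference they can show. Over all 13, with values under the floor set to it, the median log2 difference between 37 °C and 25 °C was 0.43 in wild type and 0.39 in nab3-11. The medians of all measured genes were 0.29 and 0.21. The sign of the mitochondrial medians rests on the setting: with a common median they were -0.04 and 0.01, and with the floor at the 55th percentile both were 0. On 7 of the 12 measured probe sets both warm signals lay above both cool ones, as for 42.5% of genes.

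MSD1, the mitochondrial aspartyl enzyme gene, had signals of 66.2, 30.0, 40.2 and 48.5 in array order. At 2.21-fold higher at 37 °C in the mutant, it was the 1 mitochondrial gene past the threshold, where 15.7% of measured genes were higher, and it did not pass with a common median, with quantile normalization, with the floor at the 55th percentile or with the floor added to each signal. At 1.5-fold, 3 mitochondrial genes were higher, where 30.8% of genes were. SLM5, for asparagine, had 39.7, 22.2, 35.5 and 51.2 and was 1.79-fold higher in the mutant. MSK1, for lysine, had 121, 80.5, 76.4 and 72.0, with its highest signal on the warm mutant array.

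In wild type 3 mitochondrial genes were at least 1.5-fold higher at 37 °C, where 29.8% of genes were. The highest value was that of MSE1, for glutamate, with 42.8 at 37 °C against 19.1 at 25 °C, which is at least 1.96-fold higher, since the latter lies under the floor. Its signals in nab3-11 were 24.4 at 37 °C and 19.3 at 25 °C. MST1, for threonine, was at least 1.60-fold higher in wild type, and MSM1, for methionine, 1.62-fold. MSR1, for arginine, was 1.38-fold higher in wild type and 1.48-fold in the mutant.

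At the low end, NAM2, the leucyl enzyme gene whose protein also takes part in splicing of mitochondrial introns, had signals of 15.8, 24.5, 25.6 and 27.6, with the warm mutant array alone under the floor. MSF1, for phenylalanine, exceeded the floor on 1 array, the warm wild type one, with 25.3. DIA4, the presumed seryl enzyme gene, exceeded it on none, with signals between 2.498 and 21.4, and has no measured difference.

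Matching enzymes for the same amino acid gives 12 pairs, and in all 12 the cytosolic gene had the lower temperature difference in both strains. The pairs hold the same genes as the class medians, so this count is not separate support for them. All cytosolic values in the pairs lay below zero, while the medians of all measured genes were 0.29 in wild type and 0.21 in nab3-11. The median gap was -0.78 on the log2 scale in wild type and -1.56 in nab3-11. It was widest in the mutant for asparagine (DED81 and SLM5, -2.18) and isoleucine (ILS1 and ISM1, -2.15), and narrowest for phenylalanine (FRS2 and MSF1, -0.60), where MSF1 lay under the floor on both mutant arrays. The serine pair sets SES1 against DIA4, which was not measured and counts as 0. The class medians differed by -1.01 in wild type and -1.44 in nab3-11. In the mutant FRS1 had the highest cytosolic value at -0.21. The lowest mitochondrial one was that of NAM2, -0.17 or lower, since its warm signal lies under the floor, so the classes cannot be said to be apart. The gap between medians narrowed to -0.44 in wild type and -1.03 in nab3-11 with quantile normalization, and to -0.58 and -1.05 with the floor at the 55th percentile.

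**Figure D3:**
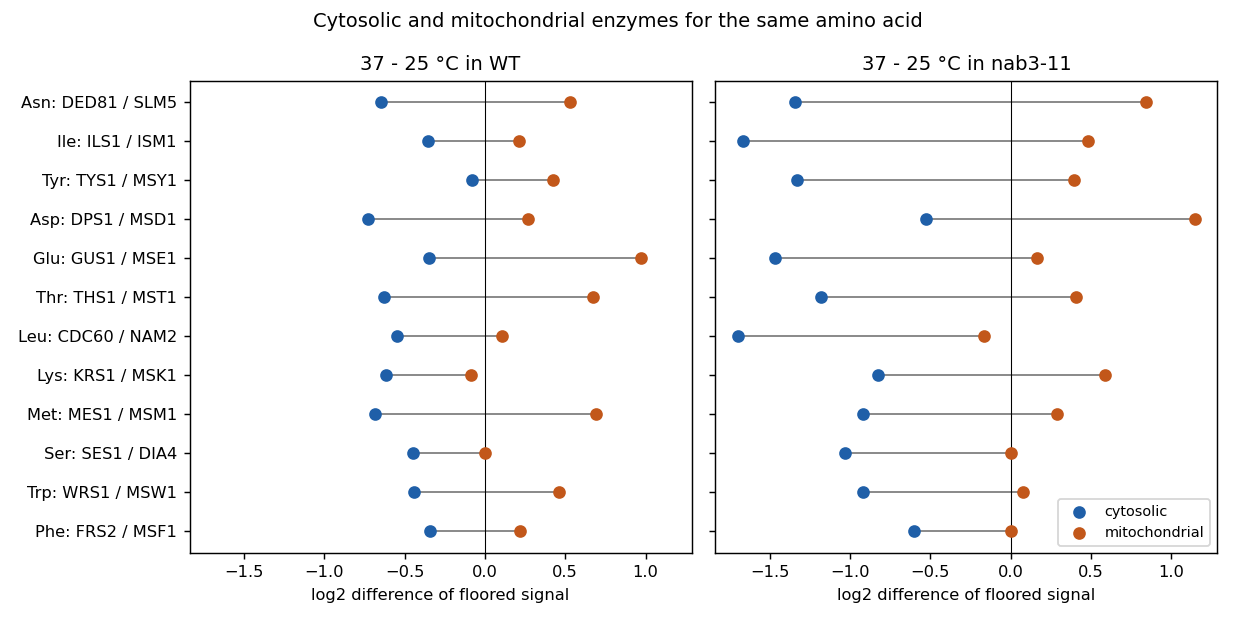
Log2 difference between 37 °C and 25 °C for the cytosolic (blue) and the mitochondrial (orange) enzyme of 12 amino acids, in wild type on the left and nab3-11 on the right. In each pair and strain the blue dot lies to the left, by 0.45 to 1.38 in wild type and by 0.60 to 2.18 in nab3-11. Both smallest gaps set a cytosolic value against an unmeasured partner drawn at 0 (DIA4 in both strains, MSF1 in nab3-11).

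Between the strains at 37 °C none of the 32 genes passed 2-fold, where 3.94% of 4770 measured genes were at least 2-fold lower and 4.78% higher. Most cytosolic genes were moderately lower: 17 of 18 lay below zero, against 54.3% of all genes, and their median was -0.57 against -0.05. On the hybridisation control scale 13 lay below zero, and the medians were -0.31 and 0.19. The lowest were CDC60 at -0.95, ILS1 at -0.92, VAS1 at -0.82, WRS1 (tryptophan) at -0.79, TYS1 at -0.78 and GUS1 at -0.75. At 1.5-fold, 8 of 18 were lower and none higher, where 14% and 11.8% of genes were.

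The smallest differences at the upper end belonged to class II enzymes. FRS1, the beta subunit of the phenylalanyl enzyme, had signals of 1707, 1976.5, 2673 and 1682 in array order. DPS1, for aspartate, had 954, 1374, 1585 and 958.5. FRS2, the catalytic alpha subunit that pairs with Frs1, had 333, 506, 461 and 364, and KRS1, for lysine, 726, 1287, 1306 and 852.5. Their differences between the strains at 37 °C were 0.02, -0.01, -0.13 and -0.23 on the log2 scale. HTS1, also class II, lay between FRS2 and KRS1 at -0.18.

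Synthetases fall into 2 structurally unrelated classes, class I with a Rossmann-fold catalytic domain and class II with an antiparallel fold. At 37 °C the 8 cytosolic class I genes had a median of -0.79 between the strains and ranged from -0.95 to -0.38. The 10 class II genes had a median of -0.29 and ranged from -0.63 to 0.02, so the ranges overlap. On the hybridisation control scale the medians were -0.53 and -0.03, against 0.19 over all genes. In the shift of wild type the order of the class medians was the other way, -0.40 for class I and -0.64 for class II, though with quantile normalization these were -0.45 and -0.44.

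Of the genes tied by the Arc1 complex, MES1 had signals of 477, 903, 1184 and 737 in array order, and ARC1 had 491, 785, 853 and 682. With GUS1, all 3 had their lowest signal on the warm mutant array, as did 17 of the 18 cytosolic genes and 24.7% of all 4811 genes. On the hybridisation control scale 13 of the 18 were lower in the mutant at 37 °C, and the order of the arrays was not counted there. At 37 °C they were 1.54-fold (MES1), 1.39-fold (ARC1) and 1.68-fold (GUS1) lower in the mutant. HTS1, for histidine, was 1.13-fold lower.

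Among mitochondrial genes the strain differences at 37 °C went both ways, from -0.81 for MSE1 to 0.75 for MSK1, with 9 of the 12 measured below zero and a median over all 13 of -0.27 against -0.05 over all measured genes. The median of the 5 above the floor on all arrays was 0.09, and that of all 13 was 0 with the floor at the 55th percentile. MSY1, for tyrosine, had signals of 28.6, 11.99, 35.2 and 47.3 in array order. MSM1 had 26.6, 15.8, 25.1 and 40.6, MSW1, for tryptophan, 23.0, 20.2, 23.9 and 32.9, and ISM1, for isoleucine, 35.5, 25.4, 28.9 and 33.4. The first 3 were lower in the mutant than in wild type on the cool and on the warm arrays, and ISM1 differed by 0.09 on the log2 scale at 37 °C. The cytosolic median minus the mitochondrial one was -0.30 here, and between -0.06 and -0.57 as the floor was moved from the 25th to the 55th percentile.

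At 25 °C the differences between the strains were small. None of the 32 genes passed 2-fold, where 1.17% of 4282 genes were higher and 0.537% lower. The cytosolic median was 0.09 against 0.01 over all measured genes, with 10 genes above and 8 below zero, where 48.6% of genes lay below, from -0.44 for FRS1 to 0.46 for TYS1. On the hybridisation control scale the direction turned, with 14 of 18 below zero and a median of -0.12, against -0.18 over all genes. Of the 9 mitochondrial genes measured, 8 lay below zero, and the median over all 13 was -0.13. The 5 above the floor on all arrays had a median of -0.37. At 1.5-fold, 2 mitochondrial genes were lower and none higher, where 4.76% and 6.05% of genes were. MSY1 and SLM5 lay lowest at -0.69 and -0.68, the former against a mutant signal under the floor.

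**Figure D4:**
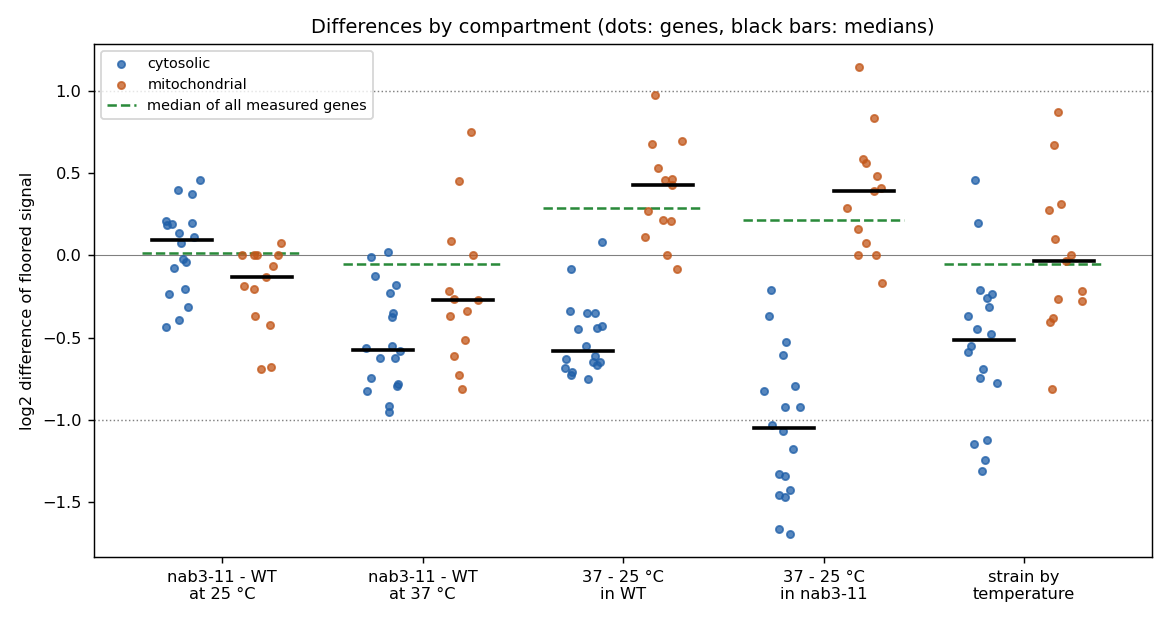
Log2 differences of cytosolic (blue) and mitochondrial (orange) enzyme genes in the 5 comparisons, with black bars for class medians, green dashes for the median of all measured genes and dotted lines at 2-fold. The cytosolic median is 0.09 between strains at 25 °C and -0.57 at 37 °C, and the widest gap between classes is in nab3-11 between temperatures.

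The strain-by-temperature difference, the change from 25 °C to 37 °C in nab3-11 minus that in wild type, was below -1 for 4 cytosolic genes and above 1 for none, where 5.45% and 4.47% of 4811 genes were. These were ILS1 at -1.31, TYS1 at -1.25, CDC60 at -1.15 and GUS1 at -1.12, all class I enzymes. The 18 cytosolic genes had a median of -0.51 against -0.05 over all measured genes, and 16 lay below zero, where 53.6% of genes did. FRS1 at 0.46 and DPS1 at 0.20 were the exceptions. Class I genes had a median of -0.93 and class II genes one of -0.34, which became -0.47 and 0.13 on the hybridisation control scale. When arrays were scaled to the hybridisation controls instead, a setting added after seeing the data, none of the 4 passed the threshold, 10 of 18 lay below zero, the cytosolic median was -0.05 and that of all genes 0.36, so the cytosolic genes again lay lower than all genes, by 0.41.

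Mitochondrial genes had a median strain-by-temperature difference of -0.03 against -0.05 over all measured genes, and none past 2-fold. The 5 above the floor on all arrays had a median of 0.31. MSD1 at 0.87 and MSK1 at 0.67 were the highest. MSE1 was the lowest at -0.81, followed by MSM1 at -0.41 and MSW1 at -0.38, all 3 resting in part on signals under the floor.

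A pair of member genes have a gene for a structured RNA within 1000 bp in the R64 annotation. SNR58, a snoRNA gene, lies downstream of WRS1 on the same strand, and a tRNA gene lies upstream of SES1 on the opposite strand. WRS1 had signals of 277, 525, 655 and 481 in array order, and neither gene stood outside the range of the other cytosolic genes.

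Of the 5 remaining yeast synthetase genes, CRS1, the cysteinyl enzyme gene, had signals of 29.7, 77.4, 55.03 and 62.0 in array order. All 5 had a log2 difference below zero between the strains at 37 °C, where 54.3% of measured genes did. CRS1 was the 1 past 2-fold, at 2.09-fold lower, where 3.94% of genes were. Its warm mutant signal of 29.7 lies near the floor. The hybridisation controls had a median log2 difference of -0.29 between the strains at 37 °C. Scaling to them, by 1 factor per array, moved the cytosolic median from -0.57 to -0.31. CRS1, at -1.06, was not run on that scale, but a shift of this size would bring it within 2-fold. The strain-by-temperature difference of CRS1 was -1.56, where 5.45% of genes were at least 2-fold lower. YDR341C, the cytosolic arginyl enzyme gene, had signals of 669, 1188, 1669 and 1008, and YHR020W, the prolyl one, 554, 1011, 937 and 773. They had log2 differences of -0.83 and -0.87 between temperatures in the mutant and of -0.73 and -0.28 in wild type. AIM10, for the mitochondrial prolyl enzyme, had 51.1, 24.9, 32.6 and 60.9 and was 2.05-fold higher at 37 °C in the mutant and 1.87-fold in wild type. In the mutant 15.7% of measured genes were at least 2-fold higher.

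GRS2, the paralog of GRS1 with little role in standard growth, had signals of 56.8, 21.2, 23.8 and 59.6, and was 2.51-fold higher at 37 °C in wild type and at least 2.61-fold in the mutant. GRS1 was 1.69-fold and 2.10-fold lower in these comparisons. The 2 glycyl genes thus lay on opposite sides in both strains. Of all measured genes, 11.1% were at least 2-fold higher in wild type and 15.7% in the mutant. Both cool GRS2 signals lie near the floor.

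Neighbouring steps of translation were described from short lists. Of the cytosolic elongation factor genes, 5 of 9 had a probe set of their own, and their medians were -0.68 between temperatures in wild type and -0.46 in the mutant, with TEF4, a subunit gene of the eEF1B exchange factor complex, 2.64-fold lower in the mutant and none of the 5 past 2-fold in wild type, though the second TEF4 probe set was at -1.33 there. The second probe set of EFB1, another eEF1B subunit gene, was at -1.29 in the mutant, and its brightest at -0.89. Over all measured genes, 1.44% were at least 2-fold lower and 11.1% higher between temperatures in wild type, and 4.06% and 15.7% in the mutant. In the other comparisons these shares lay between 0.537% and 5.45%. Of 7 mitochondrial translation factor genes, 6 were measured in wild type and 5 in the mutant between temperatures, and none passed 2-fold in any comparison. For so few genes, a count of none is near these shares. Over all 7, with unmeasured genes counted as 0, the medians were 0.15 and 0, against 0.29 and 0.21 over all measured genes. The 3 above the floor on the compared arrays had medians of 0.14 and -0.07. HER2 and GTF1, subunit genes of the enzyme that makes mitochondrial glutaminyl-tRNA from glutamyl-tRNA, had a higher signal at 37 °C, by at least 3.78-fold (HER2) and 4.16-fold (GTF1) in wild type and by at least 3.47-fold and 3.51-fold in the mutant. The other 2 genes of that list, PET112 and the formylase gene FMT1, lay under the floor on all arrays.

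Among 11 tRNA maturation and export genes, SEN2, a tRNA splicing endonuclease subunit gene, had a 37 °C signal 2.45-fold above that of wild type, and a strain-by-temperature difference of 1.76. It was the 1 gene of the list past 2-fold in either comparison, of 9 measured in each. Over all genes, 4.78% were at least 2-fold higher and 3.94% lower between strains at 37 °C. For the strain-by-temperature difference these shares were 4.47% and 5.45%. Between temperatures in the mutant, SEN15, another subunit gene, was also higher, by 2.22-fold, where 15.7% of genes were at least 2-fold higher. Of 4 genes of the Gcn pathway, which senses uncharged tRNA, GCN4, the activator of amino acid synthesis genes, had signals of 2126, 2380, 2429 and 2099, within 1.16-fold between any temperatures or strains compared. GCN1 had a strain-by-temperature difference of -1.30 on its brightest probe set, but its 9 probe sets ranged from -1.30 to 0.06. No gene of this list was called in any pairwise comparison, where between 0.537% and 15.7% of genes were at least 2-fold lower or higher. These mRNA signals do not measure the activity of the pathway.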

How the data were processed

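The deposited table gives 1 column of probe-set intensity per array on a linear scale, for which the submitters' processing notes name MAS5 and GCOS 1.1.1 as the authors' software. Per the labels' protocols, RNA was primed with oligo(dT), amplified once and labelled with biotin. The deposited intensity values have a trimmed mean near 150 on each array, which hides changes in total RNA per cell. Each array was rescaled over all 9335 probe sets to exactly that mean. Of these, 60 were controls and 6504 had 1 gene in the platform annotation, matched by gene ID to R64 gene names. No header or label names a genome build for the array design, so no coordinates are printed. The R64 annotation was used for gene names and for which genes lie within 1000 bp of a member. Sequences are not analysed here.

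The brightest probe set by mean was used for genes with several. Signals on all 4 arrays are given for members past 2-fold in any comparison, for the 3 highest and 3 lowest of each class between strains at 37 °C and for the strain-by-temperature difference, for ARC1 and for the other synthetase genes. Listed pathway genes are named if past 2-fold in either comparison. Others were named after their values were seen. Members, lists and rules were chosen with earlier results of these data known. Differences between 2 arrays are log2 differences of floored signals. Calls were tested on simulated arrays with known changes, planted only in genes with a mean signal above 100. The simulation did not cover dim probe sets, such as most mitochondrial ones, or changes of just 2-fold. The alternatives covered scaling, floor, probe-set choice, threshold and omission of the warm wild type array. Scaling to the hybridisation controls, the bright-gene background and the view of mitochondrial genes above the floor on all arrays were chosen after seeing the data. The scripts ran in Python 3.11.15, with scipy 1.17.1, pandas 2.3.3, numpy 2.4.6 and matplotlib 3.10.9.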

Additional observations from a re-analysis of the deposited data

How the results depend on the processing

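No paired analysis was possible because each group is 1 array. Class medians and the gaps between them shifted by less than 1.5-fold in signal under each scaling, floor and probe-set setting, which still let the cytosolic median in wild type between temperatures range from -0.44 to -1.09 and that in the mutant from -0.56 to -1.57. Counts of called members varied more. In nab3-11 between temperatures, 10 lower and 1 higher became 17 and 0 with a common median, 2 and 4 with scaling to the hybridisation controls, 16 and 3 at 1.5-fold, and 2 and 0 at 3-fold. The higher count was 2 with the floor at the 25th percentile and 0 with the 55th percentile, with the floor added and with quantile normalization. In wild type between temperatures, 0 lower became 10 with a common median and 9 at 1.5-fold, and 0 higher became 2 with the 25th percentile floor and 3 at 1.5-fold. Between strains at 37 °C, 0 lower became 2 with quantile normalization or the 25th percentile floor and 11 at 1.5-fold, and 0 higher became 1 at 1.5-fold or on the hybridisation controls. At 25 °C, 0 lower became 1 with the 25th percentile floor and 2 at 1.5-fold. For the strain-by-temperature difference, 4 lower and 0 higher became 9 and 2 at 1.5-fold, 0 lower at 3-fold, and 0 and 2 on the hybridisation controls. Without the wild type 37 °C array, nab3-11 at 37 °C against both 25 °C arrays, which keeps the temperature effect, gave 12 lower members and a class gap of -1.28. The cause of these moves was not tested, apart from the thresholds, which change counts by construction.

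The median of all measured genes between temperatures was 0.29 in wild type and 0.21 in the mutant, -0.19 and -0.26 with a common median, -0.02 and -0.08 after quantile normalization, and 0.31 and 0.63 on the hybridisation controls. The share of all called genes that were higher was 88.5% and 79.5%, then 33.97% and 32.2%, 64.3% and 51.97%, and 89.5% and 96.3%. The cytosolic median lay below that of all genes in each of these, with differences of -0.43 to -0.90 in wild type and of -0.95 to -1.31 in the mutant. The mitochondrial median between temperatures lay from -0.21 to 0.31 relative to it over all settings. Dim mitochondrial probe sets limit that class: 5 of 13 exceeded the floor on all 4 arrays, and their median was 0.27 in wild type and 0.59 in the mutant.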
